A study of Sus scrofa with 23 samples.

Results

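The insulin-like growth factor (IGF) ligands and their binding proteins were followed through pig joint cartilage with and without osteochondrosis. Members were all probe sets whose symbol in the platform annotation was exactly IGF1, IGF2, IGFBP2, IGFBP3, IGFBP5 or IGFBP6. This gave 20 probe sets for 5 genes, of 6765 genes with a symbol in the table: 3 for IGF1, 13 for IGF2, 1 each for IGFBP2 and IGFBP5, and 2 for IGFBP6. IGFBP3 was not analysed here. The filter on low values passed 19 of the 20; an IGF2 probe set (Ssc.9365.6.A1_a_at) did not, and its values are given without a test.

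Transcripts were measured with an Affymetrix array made for the pig, on total RNA of articular cartilage from animals of a Duroc by Pietrain cross. The 4 groups were affected and non-affected cartilage of the medial humeral condyle (elbow), with 8 and 6 arrays, and affected and non-affected cartilage of the medial femoral condyle (knee), with 4 and 5 arrays. The affected and non-affected animals were sibs, but the labels used here name no pairs, ages or sexes and do not tell whether each array of a group is a different animal. P-values therefore measure only the spread between these samples. Arrays 5 and 6 of the affected humerus and arrays 1 and 2 of the non-affected femur were nearly identical and were averaged, which left 21 samples: 7, 6, 4 and 4.

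IGF1 and IGF2 are secreted growth factors that act through the IGF1 receptor, and in growing cartilage they promote the division of chondrocytes and the making of matrix. The IGF-binding proteins hold the ligands in the extracellular space. They can block access to the receptor or keep a local store, and proteases release the ligands by cutting them. IGFBP6 differs from the rest of the family in binding IGF2 more tightly than IGF1. Osteochondrosis is a disorder of young animals in which growing joint cartilage fails to ossify in an orderly way.

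Values are the deposited log2 values, which have a floor at 4; a value under 4.5 is called near the floor here. A difference of 1 is a doubling. Status differences subtract non-affected from affected and site differences subtract humerus from femur, each with its standard error (SE). A call is an adjusted p under 0.05 in limma over all 16799 probe sets tested. Levels of different probe sets are not compared, since each has its own brightness.

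IGFBP6 was lower in affected than in non-affected femoral cartilage, about 4-fold on both of its probe sets, a call that was lost when some single samples were left out and when 4 samples with high actin controls were; it was not called for status in the humerus. No other member was called for status at either site. IGFBP5 was higher in the femur than in the humerus in both status groups. The brightest IGF2 probe set was also called higher there, but these calls were lost when some single samples were left out. Most other IGF2 probe sets were not called between sites. IGFBP2 lay near the floor in affected femur and was far higher in affected humerus. Of the 3 IGF1 probe sets 2 shared 1 order of group means, highest in affected humerus, and the third was highest in non-affected femur.

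The libraries of both sites differed in more than cartilage. The bacterial hybridisation controls, which are added to each array in a fixed amount, averaged 11.63 to 11.80 in the 8 femoral samples and 10.47 to 10.79 in the 13 humeral samples, with no overlap. Site and hybridisation therefore cannot be told apart. Within a site the controls of affected and non-affected samples overlapped. The signal of GAPDH at its 3′ end minus that at its 5′ end, commonly read as a sign of RNA integrity, also differed by site, at 0.17 to 0.41 in the femur and -0.08 to 0.13 in the humerus. The part of both in the site differences below was not tested. The same measure for actin was 7.25 to 8.39 in 4 samples (femur affected 2, femur non-affected 4 and 5, and humerus affected 8) and 0.61 to 1.56 in the other 17, with a 3′ signal of 15.41 to 17.64 in the former and 8.53 to 9.58 in the latter. Their GAPDH values (0.34, 0.27, 0.24 and 0.04, in the same order) lay within the range of their site. The same 4 samples had the highest means over the listed muscle markers (7.03, 7.61, 6.94 and 7.62, against at most 6.34 in the others). Of the 8 femoral samples 3 are among these, so a fit without all 4 was added after seeing the data, which left 3 affected and 2 non-affected femoral samples. Cartilage markers were high in all groups: 6 of the 14 listed genes were on the array, and their mean lay between 11.1 and 12.3 in every sample. COL2A1, the main collagen of cartilage, averaged 11.60 to 12.25 across the groups, and ACAN, its main proteoglycan, 13.25 to 13.72. Humerus non-affected 5 stood apart from the other humeral samples: its score on the first principal component was 29.0, against -53.2 to -0.8 for the others and 26.9 to 58.4 for the femur, while its hybridisation controls (10.79) were at the humeral level. Calls that were lost without this sample are given with and without it.

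Of the ligands, IGF1 was measured by 3 probe sets, and Ssc.16231.1.S1_a_at and Ssc.16231.3.S1_a_at moved together. Their correlation was 0.95 over the 8 femoral and 0.97 over the 13 humeral samples, whereas Ssc.16231.2.A1_a_at correlated with either of them at 0.06 to 0.27. These correlations are descriptions over samples that share an array each.

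On Ssc.16231.1.S1_a_at, IGF1 read 5.62, 6.18, 6.13 and 7.02 in affected femur and 5.93, 5.87, 6.55 and 6.10 in non-affected femur. In affected humerus it ran from 5.99 to 8.32 with a median of 7.10, and in non-affected humerus from 5.94 to 7.21 with a median of 6.61. All 4 groups overlapped. The 3 highest samples were all of affected humerus (8.32, 7.93 and 7.55), but that group also held a sample at 5.99. Affected minus non-affected was 0.55 ± 0.34 (SE, adjusted p = 0.781) in the humerus and 0.12 ± 0.43 (SE, adjusted p = 0.894) in the femur. Without humerus non-affected 5 the humeral difference was 0.42.

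Ssc.16231.3.S1_a_at repeated this order. The affected humerus averaged 7.44 ± 0.92 (SD, n = 7) and the non-affected humerus 7.02 ± 0.52 (SD, n = 6); the affected femur averaged 6.28 ± 0.75 (SD, n = 4) and the non-affected femur 6.13 ± 0.37 (SD, n = 4). Its status differences were 0.42 ± 0.36 (SE, adjusted p = 0.851) in the humerus, 0.35 without humerus non-affected 5, and 0.15 ± 0.46 (SE, adjusted p = 0.884) in the femur. In the femur the positive sign on both probe sets rested on femur affected 4 (7.02 and 7.38); without that sample the differences were -0.14 and -0.22. In affected cartilage this probe set was lower in the femur by a difference of -1.16 ± 0.41 (SE, adjusted p = 0.0307), and Ssc.16231.1.S1_a_at by -0.87 ± 0.38 (SE), which was not called (adjusted p = 0.0763). The call did not hold with quantile normalisation (-1.02, adjusted p = 0.0563), with arrays centred on their medians (-1.0, adjusted p = 0.0572) or with only the affected groups fitted (adjusted p = 0.0683), and 6 single samples ended it when left out (adjusted p between 0.00915 and 0.0985 over all such fits).

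The third IGF1 probe set, Ssc.16231.2.A1_a_at, ordered the groups in another way. It read 6.22, 5.87, 5.56 and 6.28 in affected femur and 6.70, 6.16, 6.53 and 6.65 in non-affected femur, so that 2 of the 4 affected samples lay within the non-affected range. In the humerus 6 of the 7 affected samples (5.71 to 6.01) lay above all non-affected samples (5.35 to 5.61), and humerus affected 5 (5.46) lay among them. The status difference was -0.53 ± 0.15 (SE, adjusted p = 0.0878) in the femur and 0.29 ± 0.12 (SE, adjusted p = 0.759) in the humerus, 0.27 without humerus non-affected 5. The difference between both was -0.82 ± 0.20 (SE, adjusted p = 0.0766). None of these was called. The femoral difference passed with all 23 arrays taken as separate samples (adjusted p = 0.0371) and without femur affected 4 (adjusted p = 0.0450), within a range of 0.0371 to 0.571 over its alternatives. The difference between the status effects passed with 23 arrays (adjusted p = 0.0366). It also passed without femur affected 1 (adjusted p = 0.0492) or femur affected 4 (adjusted p = 0.0456), within a range of 0.0366 to 0.297. In non-affected cartilage this probe set was higher in the femur by 1.01 ± 0.14 (SE, adjusted p = 7.21e-05; 0.99 without humerus non-affected 5), with no overlap, the opposite sign to the other IGF1 probe sets in the same samples (-0.44 and -0.89, neither called). Groups of both sites did not overlap for 21.1% of all probe sets in non-affected cartilage.

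**Figure D1:**
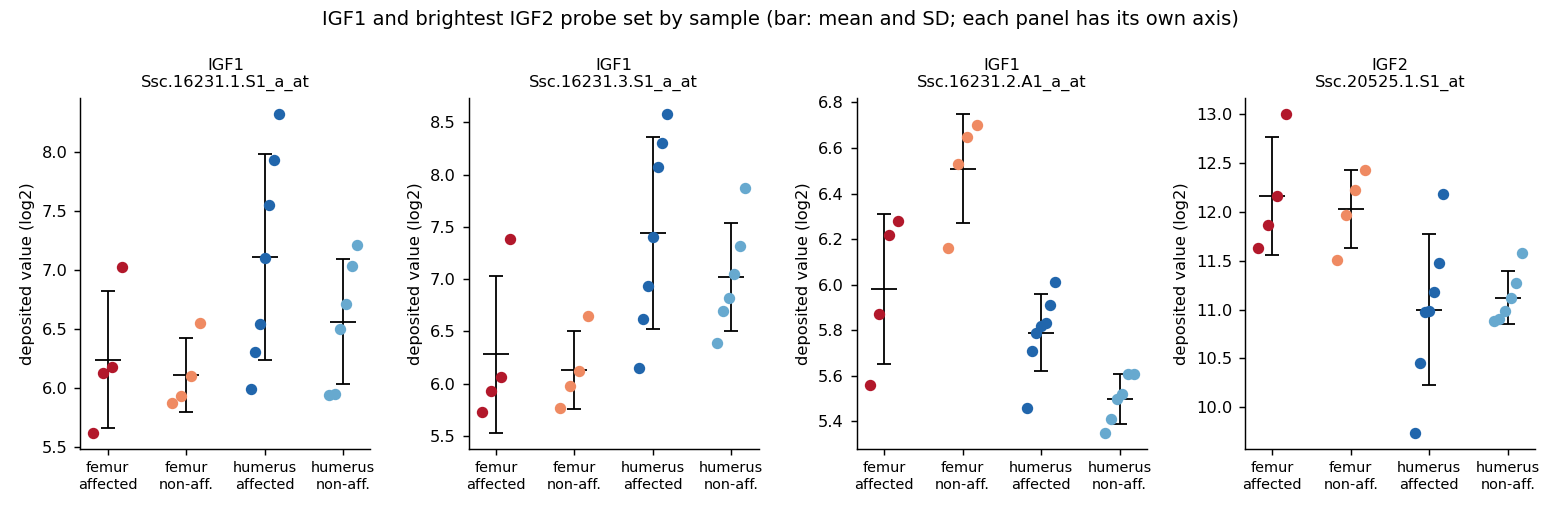
Deposited log2 values (vertical axes, one per panel) of the 3 IGF1 probe sets and the brightest IGF2 probe set in the 4 groups; points are samples and bars give the mean and SD. The first pair of IGF1 panels has its highest samples in affected humerus (up to 8.32 and 8.58), the third IGF1 panel has its highest samples in non-affected femur (up to 6.70), and IGF2 is highest in the femur (up to 13).

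IGF2 had 13 probe sets. The brightest, Ssc.20525.1.S1_at, carries another cluster number in its name than the rest. It read 11.63, 12.16, 11.86 and 13 in affected femur and 11.51, 12.43, 12.22 and 11.97 in non-affected femur. The affected humerus ran from 9.74 to 12.18 with a median of 10.99, and the non-affected humerus from 10.88 to 11.58 with a median of 11.05. Affected and non-affected overlapped at both sites, with differences of 0.13 ± 0.37 (SE, adjusted p = 0.871) in the femur and -0.13 ± 0.29 (SE, adjusted p = 0.952) in the humerus. The affected humerus was the most variable group on this probe set, with an SD of 0.77 against 0.27 in the non-affected humerus, and held both the lowest sample (9.74) and 1 as high as the femur (12.18).

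The other 12 IGF2 probe sets, all of the Ssc.9365 cluster, had group means between 5.18 and 9.19. Of these, 11 were tested. Their status differences lay between -0.11 and 0.16 in the femur and between -0.07 and 0.10 in the humerus, and none was called. The probe set that failed the filter, Ssc.9365.6.A1_a_at, had means of 5.49 ± 0.14 (SD, n = 4) for affected femur, 5.18 ± 0.39 (SD, n = 4) for non-affected femur, and 5.20 and 5.18 for the humerus.

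Between sites, Ssc.20525.1.S1_at was higher in the femur by 0.91 ± 0.34 (SE, adjusted p = 0.0421) in non-affected and by 1.17 ± 0.33 (SE, adjusted p = 0.00932) in affected cartilage, a fold of 1.88 and 2.24. The call in non-affected cartilage did not hold without any 1 of 8 samples, humerus non-affected 5 among them (0.88, adjusted p = 0.0606), with adjusted p from 0.0193 to 0.129 over these fits, nor without the 4 samples of high actin signal (0.85, adjusted p = 0.2). The call in affected cartilage did not hold without femur affected 4, its highest sample (0.89, adjusted p = 0.0516; 0.00163 to 0.0516 over these fits). Over all probe sets the groups of both sites did not overlap for 21.1% in non-affected and 20.2% in affected cartilage. Among these, Ssc.9365.4.S1_a_at separated the sites with no overlap: 6.06 to 6.55 in the 8 femoral and 5.41 to 5.89 in the 13 humeral samples. Its differences were 0.84 ± 0.12 (SE, adjusted p = 7.54e-05; 0.86 without humerus non-affected 5) in non-affected and 0.71 ± 0.11 (SE, adjusted p = 0.000161) in affected cartilage. Of the others, Ssc.9365.7.A1_x_at was called in non-affected (0.29, adjusted p = 0.0448) and Ssc.9365.5.S1_at in affected cartilage (0.37, adjusted p = 0.0385), while Ssc.9365.5.S1_a_at leaned the other way (-0.33 and -0.34, not called). The call of Ssc.9365.7.A1_x_at was lost in 14 of 30 alternatives, among them no filter on low values (adjusted p = 0.0580), only the groups compared (adjusted p = 0.0670), 11 single samples left out (adjusted p up to 0.109) and the 4 samples of high actin signal left out (adjusted p = 0.198). The call of Ssc.9365.5.S1_at was lost in 6 of 29, with only the groups compared (adjusted p = 0.0976), without the 4 samples of high actin signal (adjusted p = 0.0768) and without any of 4 single samples, and its difference was 0.23 without femur affected 3 (adjusted p = 0.194).

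**Figure D2:**
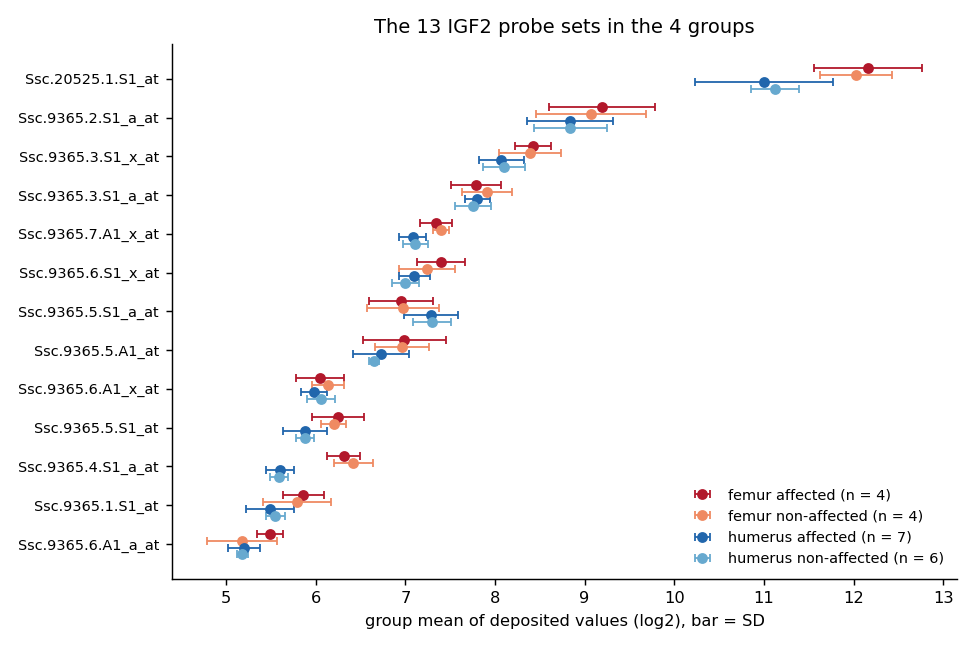
Group means of the deposited log2 values (horizontal axis; bars are SD) for each of the 13 IGF2 probe sets (rows). Affected and non-affected means of a site lie close on the tested probe sets, and the femoral means of Ssc.20525.1.S1_at (12.16 and 12.03) stand to the right of the humeral means (11 and 11.12).

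Of the binding proteins, IGFBP6 changed with status in the femur. On Ssc.14062.1.S1_at it read 9.90, 8.35, 7.72 and 9.74 in affected femur and 10.74, 10.89, 11.52 and 11.22 in non-affected femur. No affected femoral sample reached the lowest non-affected one, and the affected samples split into a pair near 10 and a pair at or below 8.35. The humerus held intermediate values: affected samples ran from 9.32 to 10.78 with a median of 10.31, and non-affected samples from 8.86 to 10.06 with a median of 9.77.

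The femoral difference on this probe set was -2.17 ± 0.42 (SE, adjusted p = 0.0156), or 4.49-fold lower in affected cartilage. On the second probe set, Ssc.14062.2.S1_a_at, the affected femoral samples read 9.97, 8.69, 8.10 and 9.95 and the non-affected ones 10.79, 10.91, 11.63 and 11.29, again with no overlap. Its difference was -1.98 ± 0.41 (SE, adjusted p = 0.0212), or 3.94-fold lower. Both probe sets followed each other across samples (r = 1.0 over 8 femoral and 0.98 over 13 humeral samples), so they are repeated readings of 1 transcript and not independent evidence.

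These 2 calls stand among 19 member probe sets tested, and over all probe sets 1.14% were called in the femur (192 of 16799). Groups did not overlap for 2 members, and for 8.08% of all probe sets. A two-sided exact permutation test on the 4 against 4 femoral samples gave p = 0.0286 for each IGFBP6 probe set, the smallest such a design allows, and 0.303 after adjustment over the 40 member tests. At that smallest p, 2 probe sets alone cannot pass an adjustment over 40 tests, so the adjusted value decides nothing. The calls did not hold with the femoral samples fitted alone (adjusted p = 0.155 for both). Leaving out any of femur non-affected 4 and femur affected 2 and 3 ended both, with differences of -1.76 to -2.02 and adjusted p up to 0.0663 on Ssc.14062.1.S1_at, and of -1.62 to -1.82 and adjusted p up to 0.0938 on Ssc.14062.2.S1_a_at. The second probe set also lost its call without femur non-affected 3 (adjusted p = 0.0519) and with array weights (adjusted p = 0.0579). Without the 4 samples of high actin signal the differences were -1.7 (adjusted p = 0.208) and -1.51 (adjusted p = 0.269), with no call, and 51 probe sets in all were called in place of 192. The difference stayed negative in each of these fits.

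In the humerus IGFBP6 leaned the other way without a call. Affected minus non-affected was 0.54 ± 0.33 (SE, adjusted p = 0.781) on Ssc.14062.1.S1_at and 0.46 ± 0.32 (SE, adjusted p = 0.798) on Ssc.14062.2.S1_a_at, with overlapping groups. Without humerus non-affected 5, the lowest humeral sample (8.86 and 9.21), the differences were 0.38 and 0.29. Over all probe sets 0.0% were called in the humerus (0 of 16799 by limma, with 1100 at an unadjusted p under 0.05). The femoral status difference minus the humeral one was -2.70 ± 0.53 (SE, adjusted p = 0.0356) and -2.44 ± 0.52 (SE, adjusted p = 0.0494), both called, against 0.268% of all probe sets. Of 29 and 30 alternatives, 18 and 19 ended these 2 calls, at adjusted p of at most 0.164 and 0.217, which were the values without the 4 samples of high actin signal (-2.37 and -2.09). Without humerus non-affected 5 they were -2.54 (adjusted p = 0.0577) and -2.27 (adjusted p = 0.0665). Over both sites in 1 model the status differences were -0.50 ± 0.38 and -0.47 ± 0.36 (SE, adjusted p = 0.784 each); by limma 0.0% of all probe sets were called in that comparison (0, with 1223 at an unadjusted p under 0.05).

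The order of group means of IGFBP6 on Ssc.14062.1.S1_at was non-affected femur (11.09 ± 0.35, SD, n = 4), affected humerus (10.18 ± 0.61, SD, n = 7), non-affected humerus (9.64 ± 0.45, SD, n = 6) and affected femur (8.93 ± 1.06, SD, n = 4). Each group overlapped its neighbour in this order. The order was the same on Ssc.14062.2.S1_a_at, at 11.15, 10.54, 10.08 and 9.18. The site difference therefore changed sign with status: femur minus humerus was 1.45 ± 0.38 (SE, adjusted p = 0.00697) and 1.08 ± 0.37 (SE, adjusted p = 0.0287) in non-affected cartilage, and -1.25 ± 0.37 (SE, adjusted p = 0.0124) and -1.36 ± 0.36 (SE, adjusted p = 0.00607) in affected cartilage. Without humerus non-affected 5 the first was 1.29 in non-affected cartilage (adjusted p = 0.0138). The second probe set lost its call in non-affected cartilage without humerus non-affected 5 (0.91, adjusted p = 0.0588), femur non-affected 4 or femur non-affected 5 and with array weights (adjusted p up to 0.0915). Without the 4 samples of high actin signal both lost their call in non-affected cartilage (1.17, adjusted p = 0.0823, and 0.77, adjusted p = 0.238). The first lost its call in affected cartilage without femur affected 2 or femur affected 3 (-0.85, adjusted p = 0.0743, without the latter). This change of sign is the same quantity as the difference between the status effects above and no further evidence.

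Markers of macrophages moved with IGFBP6 in the femur. Of 14 listed genes 9 were on the array, and all 9 had differences below 0 in the femur, with a median of -1.95 against 0.01 over all probe sets; none was called. The mean of the 9 was 5.86, 4.79, 4.71 and 6.33 in affected femur and 6.21, 6.74, 8.0 and 7.86 in non-affected femur, so the groups overlapped. The same 2 affected samples, femur affected 2 and 3, were lowest of the femoral samples on this list and on IGFBP6. This was not particular to macrophage markers. They were also lowest there on fibroblast and synovium markers (8.13 and 8.09, next 8.14) and neutrophil markers (4.34 and 4.13). The same held for the proteases of binding proteins and their inhibitors (7.05 and 7.18). C1QC, a complement subunit made by macrophages, had the smallest p of the macrophage list (-2.79, adjusted p = 0.0985). In the humerus the mean of the macrophage list was higher, at 7.32 to 9.75 in affected and 5.6 to 9.02 in non-affected samples. Humerus non-affected 5 was lowest here too. All 9 macrophage markers had status differences above 0 in the humerus, with a median of 0.85 and none called. Endothelial and vessel wall markers (6 tested) had a median of -0.86 in the femur, all 6 lower and none called, and of 1.02 in the humerus, all 6 higher and none called. Their part in the IGFBP6 difference was not tested. In pieces of whole tissue, fewer cells of a type and less RNA per cell cannot be told apart. Cartilage markers ran opposite to IGFBP6 in the femur. All 6 tested had differences above 0, with a median of 0.49 and none called, and the mean of the list was 11.75 to 12.34 in affected and 11.19 to 11.69 in non-affected samples, with no overlap. HAPLN1, the link protein of aggrecan, had 1.07 (adjusted p = 0.126), COL11A1, a minor cartilage collagen, 0.79 (adjusted p = 0.119) and SOX9, the transcription factor of chondrocytes, 0.68 (adjusted p = 0.264). Their part in the IGFBP6 difference was not tested either. In the humerus all 6 had differences below 0, with a median of -0.17. Of bone markers, a probe set of SP7, a transcription factor of osteoblasts, was called lower in affected femur (-0.98, adjusted p = 0.0350), but the brighter SP7 probe set gave -0.06. Fibroblast and synovium markers were mixed in the femur, with 6 above 0 and 5 below, and a median of 0.04. Neutrophil, fat, muscle and osteoclast markers were mixed there too (medians of 0.15, 0.18, -0.06 and -0.26). The 2 tested erythroid markers lay above 0 (median 0.61). None of these was called for status in the femur.

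IGFBP2, a binding protein abundant in fetal serum, lay near the floor in all 4 affected femoral samples (4.02, 4.22, 4.37 and 4.46). The non-affected femur held 1 sample near the floor (4.34) and 3 above it (6.10, 5.78 and 6.67). The status difference in the femur was -1.45 ± 0.63 (SE, adjusted p = 0.206) and was not called; the exact permutation test gave p = 0.0857 (two-sided, 0.571 after adjustment over the 40 member tests). In the humerus affected samples ran from 5.19 to 7.72 with a median of 7.30, and non-affected samples from 4.0 to 7.66 with a median of 6.27. The humeral difference was 0.70 ± 0.50 (SE, adjusted p = 0.799), and 0.27 without humerus non-affected 5, which lay at 4.0.

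Between sites IGFBP2 differed in affected cartilage. No femoral sample reached the lowest humeral one there, and groups did not overlap for 20.2% of all probe sets. The difference was -2.61 ± 0.56 (SE, adjusted p = 0.00138), a fold of 6.12, and it was called under each alternative run (-2.90 to -2.46). The femoral side of this difference sits at the bottom of the measured range, and the size depends on the floor. In non-affected cartilage it was -0.46 ± 0.57 (SE, adjusted p = 0.559), and -0.89 without humerus non-affected 5. Macrophage markers ran the same way here as well: all 9 were called lower in affected femur than in affected humerus, with a median of -3.67. Of endothelial and vessel wall markers 5 of 6 and of neutrophil markers 4 of 5 were called lower there. So were 4 of 5 osteoclast (1 higher), 5 of 7 bone (0 higher) and 5 of 11 fibroblast and synovium markers (1 higher). Of cartilage markers 2 of 6 were called higher and 0 lower. Over all probe sets 24.6% were called lower and 13.9% higher in this comparison. The part of these markers in the IGFBP2 difference was not tested.

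IGFBP5, a binding protein stored in bone matrix, had group SDs of 0.35 to 0.52. It read 9.77, 9.87, 9.24 and 10.16 in affected femur and 9.69, 10.13, 10.08 and 10.54 in non-affected femur. The affected humerus ran from 7.47 to 8.60 with a median of 8.45, and the non-affected humerus from 8.20 to 9.80 with a median of 8.74. Affected samples leaned lower at both sites, by -0.35 ± 0.28 (SE, adjusted p = 0.497) in the femur and -0.54 ± 0.22 (SE, adjusted p = 0.759) in the humerus. Over both sites the difference was -0.47 ± 0.17 (SE, adjusted p = 0.618); none of these was called. Without humerus non-affected 5 the humeral difference was -0.35.

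IGFBP5 was higher in the femur by 1.27 ± 0.26 (SE, adjusted p = 0.00121) in non-affected and by 1.47 ± 0.25 (SE, adjusted p = 0.000254) in affected cartilage, a fold of 2.42 and 2.76. In affected cartilage no humeral sample reached the lowest femoral one (9.24), and groups did not overlap for 20.2% of all probe sets. In non-affected cartilage only humerus non-affected 5 (9.80) lay within the femoral range, and without it the difference was 1.46 (adjusted p = 0.000159). Both calls held under each alternative run.

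**Figure D3:**
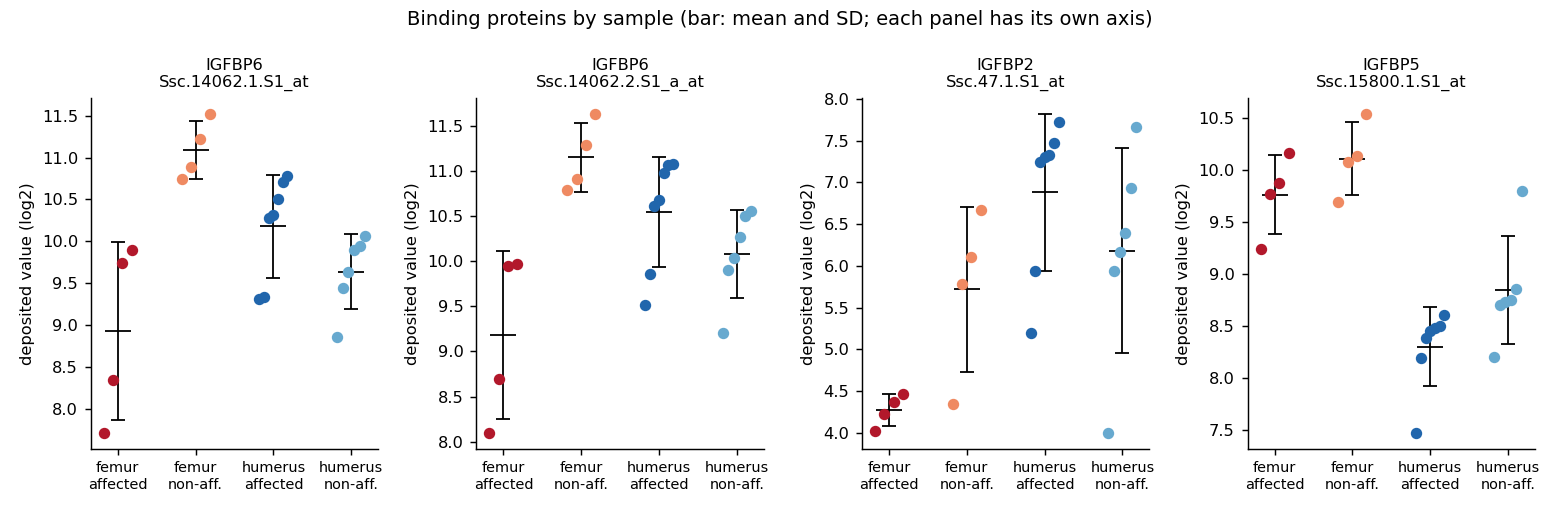
Deposited log2 values (vertical axes, one per panel) of both IGFBP6 probe sets, IGFBP2 and IGFBP5 in the 4 groups; points are samples and bars give the mean and SD. On both IGFBP6 panels all 4 affected femoral samples lie below the 4 non-affected ones, IGFBP2 sits between 4.02 and 4.46 in affected femur, and IGFBP5 is lower in the humerus with 1 non-affected humeral sample at 9.80.

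**Figure D4:**
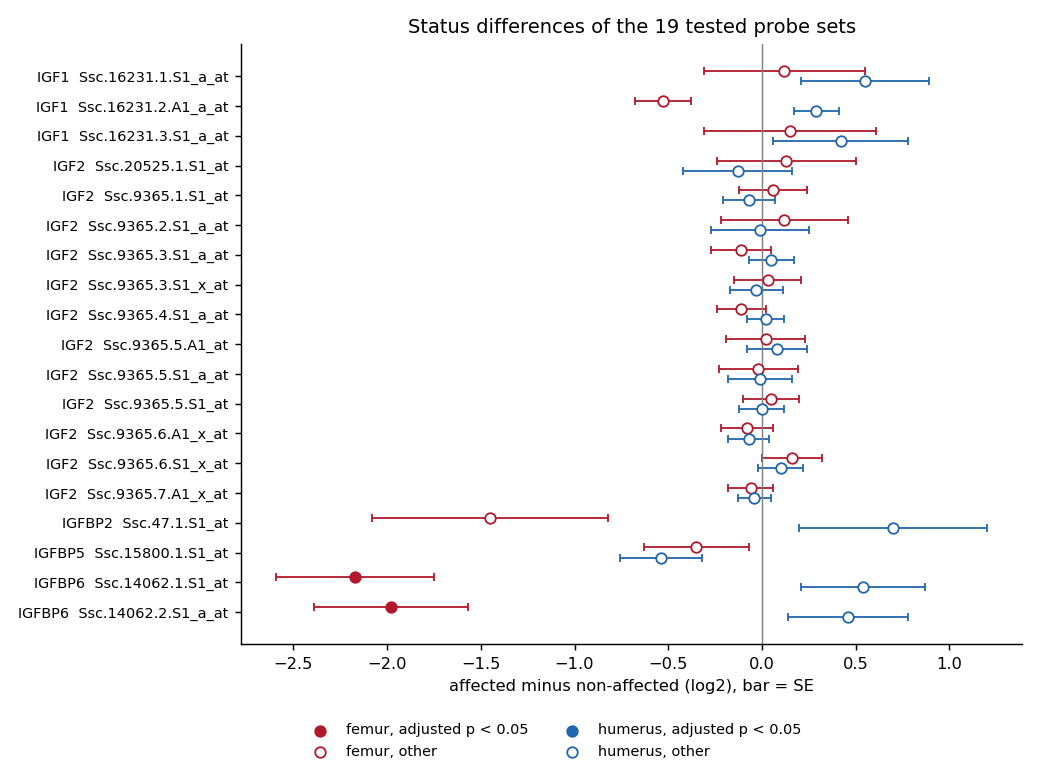
Affected minus non-affected (horizontal axis, log2; bars are SE) for the 19 tested probe sets (rows) in the femur and the humerus; filled points have an adjusted p under 0.05. Only both IGFBP6 probe sets are filled, in the femur (-2.17 and -1.98), and the IGF2 probe sets cluster around 0.

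The members were called about as often as other probe sets between sites. For status the only calls were the 2 IGFBP6 probe sets of 19 in the femur, against 1.14% of all probe sets. The same 2 were called in the difference between the status effects, against 0.268% of all. Between sites 7 of 19 were called in non-affected cartilage, all higher in the femur, where 36.6% of all probe sets were called (11.6% higher and 25.0% lower). In affected cartilage 8 of 19 were called, 4 higher and 4 lower, where 38.5% of all were called (13.9% higher and 24.6% lower). Groups of both sites did not overlap for 5 of 19 members in non-affected cartilage, against 21.1% of all probe sets. In affected cartilage this held for 3 of 19, against 20.2%. The median site difference of the members was 0.29 and 0.26, against -0.12 and -0.11 over all probe sets. The scaling of the arrays sets the split over all probe sets: 31.6% of calls in non-affected cartilage were higher in the femur as deposited, 54.5% with quantile normalisation and 57.6% with centred arrays, and in affected cartilage 36.0%, 56.7% and 58.3%. The called member differences named above kept their sign under both scalings.

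**Figure D5:**
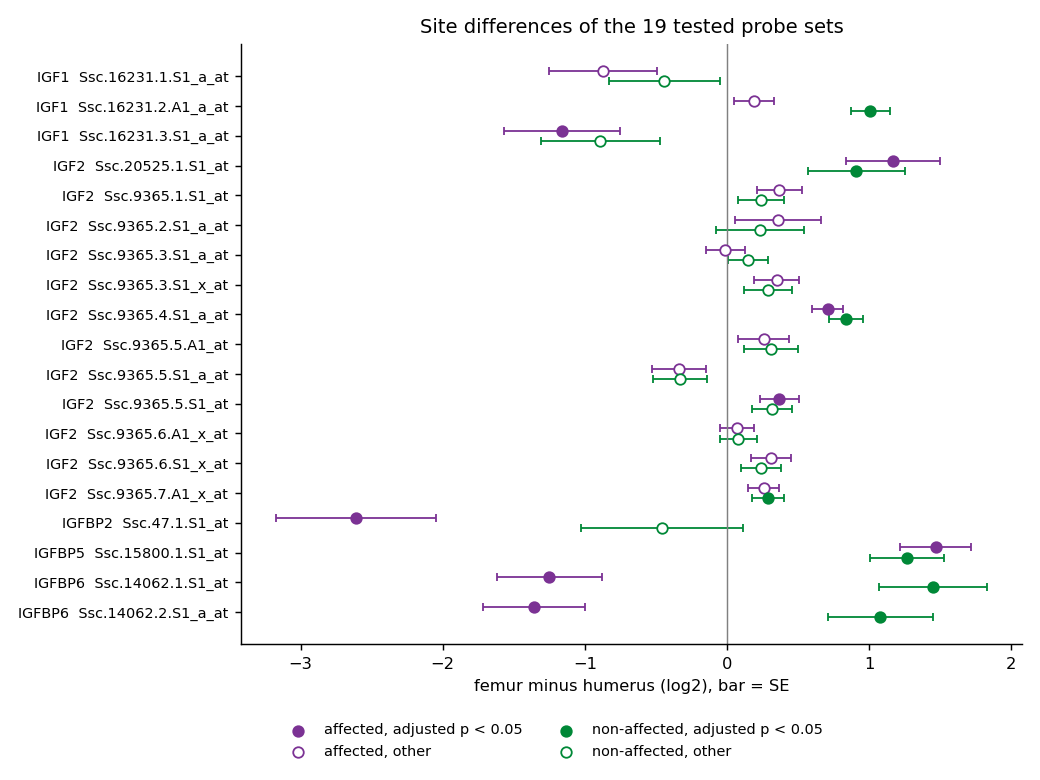
Femur minus humerus (horizontal axis, log2; bars are SE) for the 19 tested probe sets (rows) in affected and non-affected cartilage; filled points have an adjusted p under 0.05. IGFBP5 lies to the right in both (1.47 and 1.27), IGFBP2 lies far to the left in affected cartilage (-2.61), and IGFBP6 changes side between affected (-1.25 and -1.36) and non-affected cartilage (1.45 and 1.08).

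Of the rest of the pathway 31 of 54 listed genes were on the array and 29 were tested, each by its brightest probe set. None was called for status in the femur, the humerus or over both sites, nor in the difference between the status effects. Their median femoral difference was 0.01. The 7 tested proteases of binding proteins and their inhibitors had medians of -0.61 in the femur (3 above 0, 4 below) and 0.53 in the humerus (5 above, 2 below). The median of their differences between the status effects was -1.43 (3 above, 4 below). STC1, on that list, had -2.18 in the femur (adjusted p = 0.222), with an SD of 3.15 in affected femur. The receptors were not called for status: IGF1R, which carries the signal of both ligands, averaged 6.11 to 6.27 across the groups, and IGF2R, which clears IGF2, 6.37 to 6.72. PLAU, the urokinase that can start cleavage of binding proteins, had means of 7.02 ± 1.38 (SD, n = 4) for affected femur and 8.91 ± 0.54 (SD, n = 4) for non-affected femur (-1.89, adjusted p = 0.147). JAK2, the kinase of the growth hormone receptor, averaged 7.31 ± 0.55 and 6.03 ± 0.85 (SD, n = 4 each; 1.28, adjusted p = 0.0836). HTRA1, a secreted protease that cuts IGFBP5, was bright in all groups (12.5 to 12.9) with a femoral difference of 0.18 (adjusted p = 0.670).

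Between sites 5 pathway genes were called higher and 4 lower in non-affected femur, and 4 higher and 6 lower in affected femur. These 9 and 10 of 29 are a smaller share than the 36.6% and 38.5% called over all probe sets, so the genes below describe these samples and do not set the pathway apart. IRS1, the adaptor that couples the receptor to its kinases, was higher in the femur in both (0.53, adjusted p = 0.0257, and 0.94, adjusted p = 0.000440), and JAK2 was lower in both (-1.67, adjusted p = 0.00115, and -0.86, adjusted p = 0.0440). In non-affected cartilage GHR, the growth hormone receptor, SOCS3, STC1 and TSC2 were also higher, by 0.36 to 2.38, and ADAM9, PDPK1 and RHEB lower, by a difference of -1.33 to -0.45. In affected cartilage INS, GRB10 and TSC1 were also higher, by 0.31 to 0.52. Lower there were ADAMTS1 (-3.18, adjusted p = 0.00125), CTSD (-1.61, adjusted p = 0.00282), GRB2, AKT2 and MAPK3 (-0.64 to -0.45). Some genes were called only by a dimmer probe set: IGF1R (-0.84), HTRA1 (0.51), GRB2 (-0.71) and ADAMTS1 (-2.04) in non-affected cartilage, and IGFBP1 (0.40), a further binding protein, ADAM9 (-1.04) and HTRA1 (0.41) in affected cartilage. A dimmer GRB2 probe set was called the other way in affected cartilage (0.32).

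The genes most like each member over the 21 samples were found by Pearson correlation of log2 values, as a description of samples that share site and array. For both IGFBP6 probe sets FTL, the light chain of ferritin, came first (r = 0.87 and 0.90). Within the 8 femoral samples its r was 0.98 with each, and within the 13 humeral samples 0.69 and 0.72. The next were PCSK1N and GABARAP (0.84 and 0.83) for the first and FAM32A and PDE4A (0.83 and 0.82) for the second. IGFBP2 was most like CFD, the complement protease also called adipsin, FABP3, a fatty acid-binding protein (both 0.93), and FCGR2B, an Fc receptor of immune cells (0.92), with r of 0.81 to 0.87 in the femur and 0.88 to 0.94 in the humerus. IGFBP5 was most like PKNOX2 (0.94), a homeobox factor, HSD17B1 and CLSTN1 (both 0.93); within the femur their r was 0.80, 0.53 and 0.59, and within the humerus 0.90, 0.83 and 0.91.

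TNFAIP6, a hyaluronan-binding protein of inflamed joints, came first for IGF1 on Ssc.16231.1.S1_a_at (r = 0.85; 0.95 in the femur and 0.80 in the humerus) and on Ssc.16231.3.S1_a_at (0.86; 0.97 and 0.74). TAGLN2, CTSC and LAMB1 filled the other places, with r of 0.42 to 0.68 in the femur and 0.83 to 0.88 in the humerus. The third IGF1 probe set shared none of these and was most like PEF1, SDF4 and VPS16 (0.84 to 0.85), with r of 0.73 to 0.86 in the femur and 0.46 to 0.56 in the humerus. IGF2 on Ssc.20525.1.S1_at was most like ESAM, an adhesion molecule of endothelium (0.85), but within the femur that r was 0.29, and within the humerus 0.82. NUMA1 and C3H7orf26 followed (both 0.82), with r of 0.57 and 0.52 in the femur and 0.66 and 0.64 in the humerus. The genes most like the other IGF2 probe sets are not given here.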

How the data were processed

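Total RNA of 23 cartilage samples was hybridised to 1-colour Affymetrix pig arrays. The deposited table holds log2 values with a floor at 4; per the submitters' processing notes GCOS 1.1.1 was used, and no source used here gives the normalisation. The values were used as deposited. Gene names come from the platform annotation (1 symbol for 10099 of 24123 probe sets, several for 198, and 13826 are not in it). After removal of 124 controls, 7200 probe sets whose mean fell below the 30th percentile (5.30) were left out, and 16799 tested. Arrays of a group that differed by an SD under 0.25 were averaged. limma 3.58.1 (R 4.3.3; lmFit, eBayes) fitted the 4 group means, and status plus site for the comparison over both sites, with Benjamini-Hochberg adjustment in each comparison. The steps were tested on simulated data. Single members were also compared by two-sided exact permutation tests (scipy 1.17.1). The number of arrays limits the precision.

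The members, gene lists and tests were chosen with earlier results of these data known. Every member probe set is named. Of pathway and marker lists, probe sets called in a comparison and otherwise the smallest p in the femur could be named, and for each member the 3 most alike genes. Alternatives covered filter, scaling, variance model, array weights, averaging, probe sets per gene, the groups fitted, permutation, leaving out each sample and, chosen after seeing the data, leaving out 4 samples of high actin 3′ signal. List members named beyond this were picked with their values known.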

Additional observations from a re-analysis of the deposited data

Results flagged for a closer look

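Of 80 groups of member values examined, 5 held a sample far from the rest of its group, where chance alone would give 4. These were the IGF2 probe set Ssc.9365.1.S1_at in femur affected 2 (6.20, next 5.77) and in humerus non-affected 4 (5.77, next 5.56), Ssc.9365.2.S1_a_at in femur affected 4 (10.06, next 9.0) and Ssc.9365.4.S1_a_at in femur non-affected 1 (6.09, next 6.51). The fifth was IGFBP5 in humerus affected 2 (7.47, next 8.19). The status effect on IGFBP6 differed between femur and humerus by the interaction test, at -2.70 (adjusted p = 0.0356) and -2.44 (adjusted p = 0.0494) on its 2 probe sets. These are repeated readings of 1 transcript, and 18 of 29 and 19 of 30 alternatives ended the calls.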

How the results depend on the processing

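No paired analysis was possible because the labels do not say which animals were sibs. Member calls for status in the femur were 2. They were 1 with array weights or the brightest probe set per gene, 0 with only the groups compared and 0 to 3 without single samples. The difference between the status effects gave 2. It gave 1 with quantile normalisation or the brightest probe set, 0 with array weights and 0 to 3 without single samples. Site calls in non-affected cartilage were 7, and 12 with centred arrays, 3 with the brightest probe set (5 members tested) and 4 to 7 without single samples; in affected cartilage 8, and 5 with a filter at the 50th percentile or the brightest probe set and 5 to 9 without single samples. Over all probe sets the femoral count of 192 was 59 with array weights, 621 with 23 arrays, 67 with the brightest probe set, 4 with only the groups compared and 53 to 450 without single samples. The count of 45 for the difference between the status effects was 21 with array weights, 224 with 23 arrays and 15 to 98 without single samples. With the brightest probe set per gene, which tests fewer probe sets, the site counts were 2051 and 2483. Leaving out the 4 samples of high actin signal was an alternative chosen after seeing the data. Member calls were then 0 for status in the femur, 0 in the difference between the status effects and 3 between sites in non-affected cartilage. The counts over all probe sets were 51, 24 and 3835. IGF1 on Ssc.16231.2.A1_a_at was then 0.09 and IGFBP2 0.35 for status over both sites. Among the differences given singly, signs turned only for differences with no call. Over both sites IGF1 on Ssc.16231.2.A1_a_at was 0.03 with array weights and -0.06 to 0.06 without single samples; IGF2 on Ssc.20525.1.S1_at was 0.02 with quantile normalisation, 0.03 with 23 arrays and -0.14 to 0.10 without single samples; IGFBP2 was -0.43 to 0.07 without single samples. Without single samples the same IGF2 probe set also ran from -0.32 to 0.08 in the humerus and -0.15 to 0.31 in the femur. Its difference between the status effects ran from -0.02 to 0.45. In the femur IGF1 ran from -0.14 to 0.33 on Ssc.16231.1.S1_a_at and from -0.22 to 0.33 on Ssc.16231.3.S1_a_at. IGFBP2 between sites in non-affected cartilage ran from -0.89 to 0.0. The causes were not tested. The 11 tested IGF2 probe sets of the Ssc.9365 cluster stayed within -0.24 to 0.42 for status in the femur and -0.14 to 0.15 in the humerus under the alternatives run, with 0 calls and a turned sign in 24 and 34 of 348 values each.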
